A study of Canis lupus familiaris with 4 samples.

Results

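Small leucine-rich proteoglycans are secreted proteins whose core is built of leucine-rich repeats and which bind collagen fibrils. The 7 genes described here were chosen by name, with earlier results of these data known. Each is on the array: DCN (decorin), BGN (biglycan), LUM (lumican), FMOD (fibromodulin), PRELP, OMD (osteomodulin) and OGN (osteoglycin). They were read by 11 probe sets listed with 1 gene symbol, of 42924 probe sets on the array, and are 7 of 15115 genes with such a probe set. DCN, OMD and OGN have 1 probe set each and the other 4 genes have 2 each. Where genes are counted, the probe set that was brightest on average stands for its gene.

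Gene expression was measured in 4 canine glioblastoma (GBM) lines with 1 GeneChip Canine Genome 2.0 array per line. J3T-1 and J3T-2 come from the same parental GBM cells, and the labels give J3T-1 as expressing high and J3T-2 as expressing low annexin A2 (ANXA2). ANXA2 was knocked down in J3T-1 to give J3T-1shA and overexpressed in J3T-2 to give J3T-2A. All lines were cultured in the same serum-containing medium, and a line with an empty or scrambled vector was not analysed here. Values are signals on a linear scale, and each array has a trimmed mean of 495.8 to 496.0 after the authors' scaling and a median of 101.8 to 106.5. Because each line has a single array and no replicate, no difference below carries a test, and precision is limited by how few arrays there are.

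A gene was taken as measured between 2 arrays where the higher signal reached 250, which 35.2% to 35.9% of probe sets did per array. A difference was counted where the ratio was over 2-fold. As a yardstick, the log2 ratios of 2 probe sets of the same gene between the same 2 arrays differed with an SD of 0.29 to 0.41. This SD was taken over 3700 to 3806 genes, depending on the pair of arrays. This SD does not cover the variation between cultures. The brightest ANXA2 probe set had signals of 28656 on the J3T-1 array, 30093 on J3T-1shA, 30102.5 on J3T-2 and 28775 on J3T-2A. Another bright probe set had 24127.5 on J3T-1, 25725 on J3T-1shA, 30311 on J3T-2 and 35651 on J3T-2A. It was higher in J3T-2A than in J3T-2 but not lower in J3T-1shA than in J3T-1. The remaining ANXA2 probe set was under the limit on all arrays (14.7 to 167.8). Neither bright probe set therefore separated the lines by their labelled ANXA2 state, and every line is named below by the label of its array.

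The family is usually divided by gene structure and by the chains that the proteins carry. DCN and BGN form the class with chondroitin or dermatan sulfate chains. LUM, FMOD, PRELP and OMD form a class in which keratan sulfate and tyrosine sulfate are common, and OGN belongs to a further class. The proteins set the diameter and spacing of collagen fibrils, and several also bind growth factors such as TGF-β. In brain, where fibrillar collagen is scarce, they are mostly found in the meninges and around vessels. In the dog gene table of RefSeq (assembly UU_Cfam_GSD_1.0), OMD and OGN are adjacent protein-coding genes, as are LUM and DCN, and FMOD and PRELP. Positions are left out because the sources used here give no build for the array.

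OGN, OMD and FMOD were highest on the J3T-1shA array. OGN and OMD were under the limit on both unmodified lines, so which of these was lower was not measured. All 3 genes were over 2-fold higher in both ANXA2-modified lines than in the unmodified line of the same origin, whether ANXA2 had been overexpressed or knocked down. For OGN in J3T-2A over J3T-2 this holds only without a floor on dim signals. BGN and LUM stayed within 2-fold between every pair of arrays by both of their probe sets. DCN had another pattern, with its lowest signal on the J3T-1 array.

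**Figure D1:**
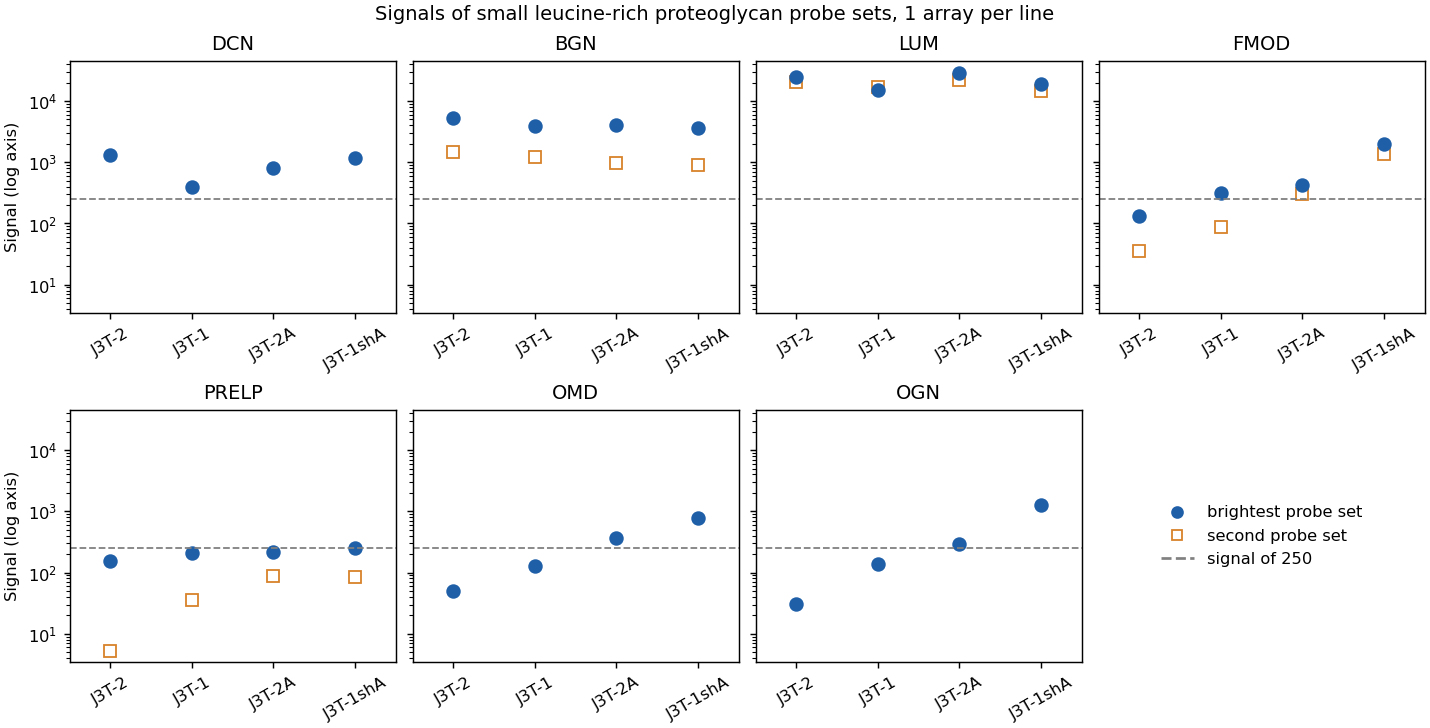
Signals (y axis, log scale) of the 11 probe sets on the 4 arrays (x axis), 1 panel per gene, with filled circles for the brightest probe set, open squares for the second and a dashed line at 250. OGN, OMD and both FMOD probe sets peak on J3T-1shA, with OGN and OMD under 250 on J3T-1 and J3T-2, whereas BGN and LUM stay over 250 on all 4 arrays and DCN is lowest on J3T-1.

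OGN encodes osteoglycin, also called mimecan, a proteoglycan first described in bone and cornea. Its signal was 30.1 on the J3T-2 array, 138.7 on J3T-1, 288.8 on J3T-2A and 1282 on J3T-1shA. The 2 unmodified lines were under the limit of 250 and the 2 modified lines were over it. J3T-1shA was 9.24-fold higher than J3T-1 (log2 ratio 3.21) and 4.44-fold higher than J3T-2A (2.15). J3T-2A was 9.59-fold higher than J3T-2 (3.26), and J3T-1shA was 42.59-fold higher than J3T-2 (5.41). The signal of 30.1 lies under the median of its array, so the size of the ratios over J3T-2 rests on a dim value. With signals under 160 set to 160, the log2 ratio of J3T-2A over J3T-2 was 0.85, within 2-fold, whereas J3T-1shA over J3T-2 was still 8.01-fold.

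OMD encodes osteomodulin, or osteoadherin, a keratan sulfate proteoglycan of mineralized tissue. Its signal was 50.3 on the J3T-2 array, 126.1 on J3T-1, 368.2 on J3T-2A and 787.3 on J3T-1shA. As for OGN, J3T-1shA was highest, both modified lines were over the limit and both unmodified lines were under it. J3T-1shA was 6.24-fold higher than J3T-1 (log2 ratio 2.64) and J3T-2A was 7.32-fold higher than J3T-2 (2.87). With signals under 160 set to 160, J3T-2A over J3T-2 was 1.20 on the log2 scale and remained over 2-fold. The log2 ratios over the remaining unmodified line were 3.97 for J3T-1shA over J3T-2 and 1.55 for J3T-2A over J3T-1. J3T-1shA over J3T-2A was 1.10, smaller than the 2.15 of OGN by more than the spread between probe sets in that pair of arrays (SD 0.33).

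FMOD encodes fibromodulin, which binds collagen and modulates its fibril assembly and cross-linking. Its brightest probe set had signals of 130.8 on the J3T-2 array, 314.7 on J3T-1, 422.7 on J3T-2A and 1957 on J3T-1shA. The second had 35.7, 88.8, 307.0 and 1361 on these arrays. Both probe sets were highest on J3T-1shA and next highest on J3T-2A, and the second was under the limit on both unmodified lines. J3T-1shA over J3T-1 was 2.64 on the log2 scale by the brightest probe set and 3.94 by the second, and J3T-2A over J3T-2 was 1.69 and 3.10. The second probe set thus gave the larger ratios, by more than the SD between probe sets of a gene, and the probe set chosen sets the size but not the direction. For J3T-2A over J3T-1, the log2 ratio was 0.43 by the brightest probe set and 1.79 by the second, so whether FMOD was over 2-fold different there depends on the probe set. J3T-1shA over J3T-2 was 3.90 and 5.25. J3T-1shA over J3T-2A was 2.21 and 2.15, where both probe sets gave nearly the same ratio.

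PRELP encodes a basic protein of the same class that anchors basement membranes to connective tissue, and it is the neighbour of FMOD in the gene order. Its brightest probe set had signals of 153.1 on the J3T-2 array, 206.6 on J3T-1, 214.9 on J3T-2A and 253.6 on J3T-1shA. Only the last of these reached the limit, and the log2 ratios of J3T-1shA over J3T-2, J3T-1 and J3T-2A were 0.73, 0.30 and 0.24. The second probe set was under the limit on all 4 arrays, at 5.3, 35.1, 86.3 and 84.8 on J3T-2, J3T-1, J3T-2A and J3T-1shA, so its ratios are not read. All ratios of the brightest probe set were within 2-fold, and most of its signals lay under the limit. By the median of both probe sets, the log2 ratio of J3T-1shA over J3T-2 was 2.36. That median draws on the second probe set, under the limit on both arrays, so it is not read as a difference.

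LUM encodes lumican, a keratan sulfate proteoglycan that organizes collagen in cornea and skin. Its brightest probe set had signals of 14940 on the J3T-1 array, 18644 on J3T-1shA, 25065 on J3T-2 and 29213 on J3T-2A. Both lines of J3T-2 origin were higher than both lines of J3T-1 origin, and the second probe set gave the same split, with 17261, 14776, 20372 and 22154. All log2 ratios of LUM lay within 1 of 0, the largest being 0.97 for J3T-2A over J3T-1, which was 0.36 by the second probe set. J3T-2A over J3T-2 was 0.22 and 0.12 by the 2 probe sets, J3T-1 over J3T-2 was -0.75 and -0.24, J3T-1shA over J3T-2 was -0.43 and -0.46, and J3T-1shA over J3T-2A was -0.65 and -0.58. For J3T-1shA over J3T-1 the probe sets disagreed in sign, at 0.32 and -0.22. The brightest probe set of each array reached 44435 to 46646, and whether such bright signals are compressed was not tested.

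BGN encodes biglycan, which carries chondroitin or dermatan sulfate chains and also acts as a ligand of Toll-like receptors. Its brightest probe set had signals of 3918 on the J3T-1 array, 3598 on J3T-1shA, 5371 on J3T-2 and 3991 on J3T-2A. The second had 1199, 889.3, 1472 and 958.4. Both probe sets were highest on J3T-2 and lowest on J3T-1shA, the array on which OGN, OMD and FMOD were highest. J3T-2A over J3T-2 was -0.43 and -0.62 on the log2 scale, and J3T-1shA over J3T-2 was -0.58 and -0.73. These were larger than the spread between probe sets (SD 0.29 and 0.41) but within 2-fold. J3T-1 over J3T-2 was -0.46 and -0.30, J3T-1shA over J3T-1 was -0.12 and -0.43, J3T-1shA over J3T-2A was -0.15 and -0.11, and J3T-2A over J3T-1 was 0.03 and -0.32.

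DCN encodes decorin, the prototype of the family, which binds collagen and TGF-β. Its only probe set had signals of 387.9 on the J3T-1 array, 1167 on J3T-1shA, 1292 on J3T-2 and 794.8 on J3T-2A. All 4 signals reached the limit, and J3T-1 stood lowest. J3T-1shA was 3.01-fold higher than J3T-1, and J3T-2 was 3.33-fold higher than J3T-1. J3T-2A was lower than J3T-2, with a log2 ratio of -0.70, and was 2.05-fold higher than J3T-1. J3T-1shA over J3T-2A was 0.55 on the log2 scale. J3T-1shA over J3T-2 was -0.15, a smaller difference than the spread between probe sets in that pair of arrays (SD 0.41). Both arrays labelled ANXA2-low were thus higher than both labelled ANXA2-high. DCN was the only member with this order in its brightest probe set. The share of all genes with this order was not counted, so the order is not read as a trait of DCN.

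**Figure D2:**
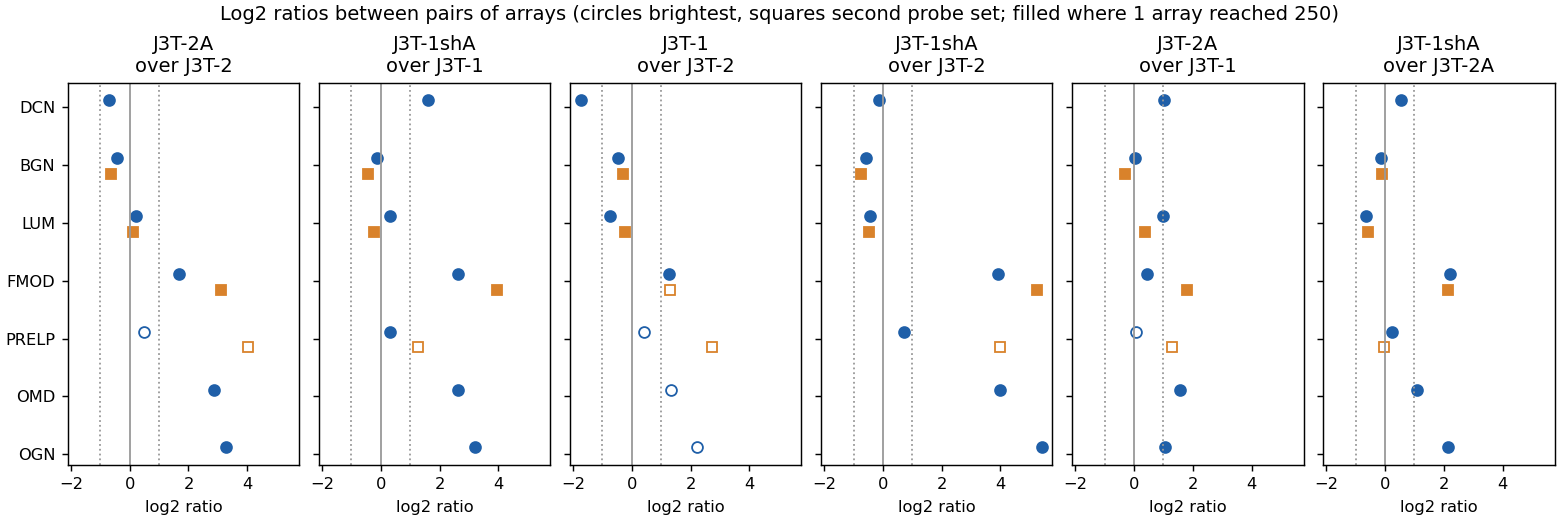
Log2 ratios (x axis) of the 7 genes (y axis) for all 6 pairs of arrays, with circles for the brightest and squares for the second probe set, filled where at least 1 of the 2 arrays reached 250, and dotted lines at 2-fold. OGN, OMD and FMOD lie over 2-fold in the panels of each modified line over its unmodified line, LUM and BGN lie within 2-fold in all panels, and DCN is on opposite sides of 0 in the first and second panels.

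In J3T-2A over J3T-2, 6 of the 7 genes were measured, and FMOD, OGN and OMD, 3 of the 6, exceeded a 2-fold increase while no member showed a 2-fold decrease. Of all 6860 genes measured there, the shares past 2-fold were 1.69% upward and 2.10% downward. The median log2 ratio was 0.96 over the 6 members and 0.00 over all measured genes. With the limit raised to 500, none of these 3 genes was measured.

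In J3T-1shA over J3T-1, all 7 genes were measured and 4 (DCN, FMOD, OGN and OMD) exceeded a 2-fold increase, with no member 2-fold down. The shares of all 6944 measured genes were 4.26% upward and 3.80% downward. The median was 1.59 over the members and -0.03 over all genes.

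The 2 comparisons share no array. OGN, OMD and FMOD were over 2-fold higher in both, as were 0.701% of the 6563 genes measured in both (46 genes), and 0.350% were over 2-fold lower in both. OGN and OMD were counted through the modified lines alone, since neither reached the limit on an unmodified one, and with signals under 160 set to 160 OGN would be within 2-fold in the first comparison. COL1A1, the main chain of the type I collagen to which the family binds, was also over 2-fold higher in both, with log2 ratios of 1.65 and 3.06. DCN was lower in the first and higher in the second comparison, BGN had small negative ratios in both, and LUM had small positive ones in both by its brightest probe set.

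**Figure D3:**
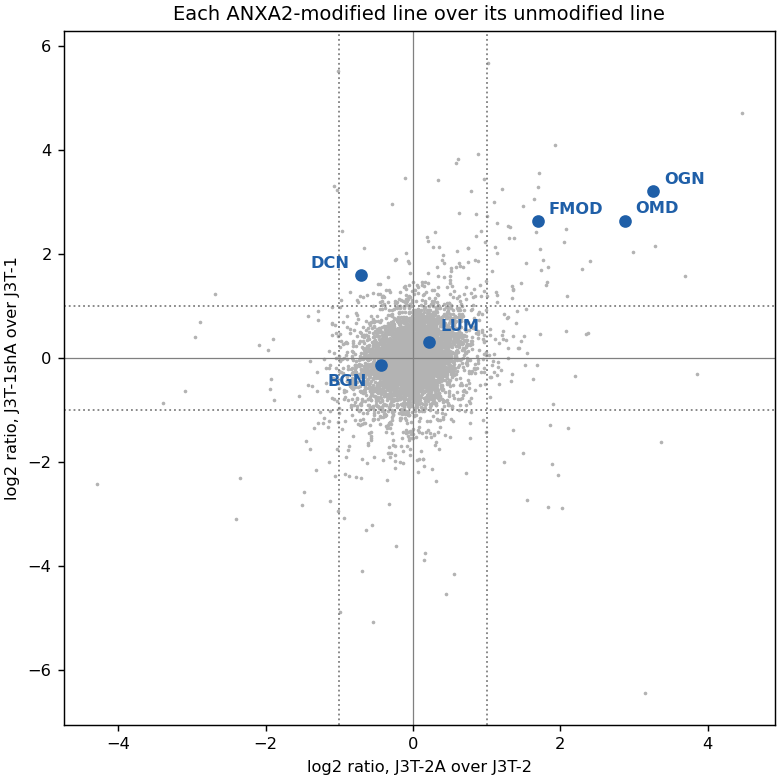
Log2 ratio of J3T-2A over J3T-2 (x axis) against J3T-1shA over J3T-1 (y axis) for the genes measured in both, with 1 array per line and dotted lines at 2-fold. OGN (3.26 and 3.21), OMD (2.87 and 2.64) and FMOD (1.69 and 2.64) lie in the upper right corner, apart from LUM and BGN near the centre and DCN in the upper left.

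The unmodified lines differed less uniformly. In J3T-1 over J3T-2, 4 genes were measured, of which FMOD was 2.41-fold higher and DCN was over 2-fold lower (log2 ratio -1.74), against 2.94% and 4.05% of all 6967 measured genes. OGN and OMD were under the limit on both arrays and were not compared, and their log2 ratios of 2.20 and 1.33 are given as values only. The FMOD log2 ratio of 1.27 was 0.98 with signals under 160 set to 160, just within 2-fold.

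Among the modified lines, J3T-1shA over J3T-2A had 3 of 7 genes over 2-fold higher (FMOD, OGN and OMD) and none lower, against 2.66% and 3.11% of all 6846 measured genes. With a pseudocount of 80 OMD was at 0.95 there and 2 genes remained over 2-fold. J3T-1shA over J3T-2 gave the same 3 genes higher and none lower, against 4.39% and 5.31% of 7012 genes. By the median of a gene's probe sets 4 genes were higher, PRELP included, but PRELP only through a probe set under the limit. J3T-2A over J3T-1 had OGN, OMD and DCN over 2-fold higher and none lower among 6 measured genes, against 2.72% and 1.94% of 6850 genes. OGN (1.06) and DCN (1.03) were only just over 2-fold there, and LUM (0.97) only just under. These pairs share arrays with those above and are not independent of them.

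OGN and OMD were set against DCN, LUM, FMOD and BGN as the difference between the mean log2 ratios of the 2 groups of genes. OGN and OMD exceeded the others by 2.87 in J3T-2A over J3T-2 (3.07 against 0.20) and by 1.82 in J3T-1shA over J3T-1 (2.93 against 1.11). With signals under 160 set to 160 the first of these fell to 0.90, and with a pseudocount of 80 it was 1.66. In J3T-1shA over J3T-2 their mean was 4.69 against 0.69, and the excess was 2.04 with that floor and 2.65 with that pseudocount. The excess was 1.13 in J3T-1shA over J3T-2A and 0.69 in J3T-2A over J3T-1. Of the other 4 genes FMOD had the largest ratio in J3T-2A over J3T-2 and in J3T-1shA over J3T-1. By its brightest probe set FMOD was at 2.64 in J3T-1shA over J3T-1, as was OMD. In J3T-1shA over J3T-2A FMOD (2.21) was above OGN (2.15) and OMD (1.10), so the excess there is one of group means only. FMOD was below both in J3T-2A over J3T-2 (1.69), J3T-1shA over J3T-2 (3.90) and J3T-2A over J3T-1 (0.43). Without FMOD, chosen for removal after its values were seen, the mean of DCN, LUM and BGN was -0.30 in J3T-2A over J3T-2 and 0.60 in J3T-1shA over J3T-1. The excess of OGN and OMD was then 3.37 and 2.33.

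Likeness between genes was measured as the Euclidean distance between log2 signals over the 4 arrays, each centred on its own mean, among 7241 genes that reached 250 on at least 1 array. Seen from OGN, OMD was the 4th nearest of the 7240 other genes (distance 1.08) and FMOD the 7th (1.26). Seen from OMD, FMOD was the 7th (0.99) and OGN the 10th. DCN, LUM and BGN were at distances of 4.10, 4.13 and 4.30 from OGN, at ranks 5269, 5450 and 6225. Many other genes lay farther from OGN, so these distances are not read as particular to the family. Of the adjacent pairs, OGN and OMD had a distance of 1.08, DCN and LUM of 1.11, and FMOD and PRELP of 2.33. LUM was at rank 991 as seen from DCN, but genes that vary little have many close neighbours, so ranks are not comparable between members. The distances of OGN and OMD also rest on their dim signals.

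The 5 genes nearest to OGN were TOX, TMEM47, SDC1, OMD and P3H2, at distances of 0.82 to 1.10. Those nearest to OMD were CCDC160, TMEM47, EPAS1, SDC1 and CRYAB (0.64 to 0.88), and those nearest to FMOD were TUBA4A, CRYAB, P3H2, SLIT3 and EPAS1 (0.35 to 0.64). P3H2 is a collagen prolyl hydroxylase, SDC1 is the cell-surface proteoglycan syndecan-1, and CRYAB is a small heat shock protein. CRYAB had signals of 742.6 on the J3T-2 array, 1481 on J3T-1, 2367 on J3T-2A and 7996 on J3T-1shA, all over the limit.

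**Figure D4:**
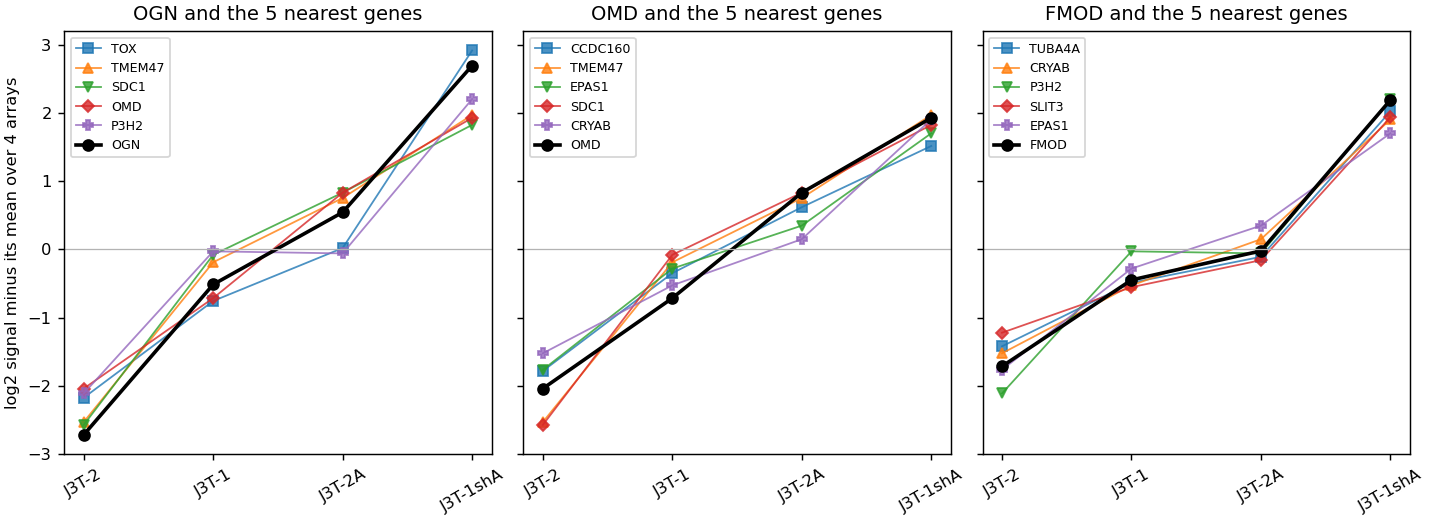
Log2 signals minus the mean over the 4 arrays (y axis) by array (x axis) for OGN, OMD and FMOD (thick black lines) and the 5 genes nearest to each (thin coloured lines). In each panel the genes peak on J3T-1shA, and OMD appears among the genes nearest to OGN.

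LUM, which varied little, was nearest to P4HA1, NRG1, TGFB1, UGP2 and TGDS, at distances of 0.08 to 0.14. P4HA1 is a collagen prolyl 4-hydroxylase subunit. BGN was nearest to PAPOLA, TTI2, WARS1, RNPC3 and CYB5R3 (0.03 to 0.05), and PRELP to GRK2, IARS1, NOP10, MGARP and FANCD2 (0.04 to 0.07). Small distances are common among genes with flat profiles and are no sign of a particular likeness. DCN was nearest to NPC2 (0.20), RND3, NECTIN2, SLC16A5 and SORBS3 (0.38). NPC2, a cholesterol-binding protein of the lysosome, had signals of 804.3 on the J3T-1 array and of 1633 to 2273 on the other 3.

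Of 11 other family members listed (ASPN, ECM2, KERA, EPYC, OPTC, CHAD, CHADL, NYX, PODN, PODNL1 and TSKU), 9 were on the array and none reached 250 on any array. ASPN (asporin), the neighbour of OMD on the side away from OGN, had signals of 4.6 to 68.6, and ECM2 had 82.0 to 205.7. These probe sets give no measured ratio, and whether they read their transcripts well was not tested.

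Enzymes that build the sugar chains mostly stayed within 2-fold, as did most measured genes. Of 22 genes for the linker and for chondroitin or dermatan chains, 21 were on the array and 10 reached the limit on at least 1 array. None of the 9 measured in J3T-2A over J3T-2 was over 2-fold different, with a median log2 ratio of -0.15. In J3T-1shA over J3T-1 the median was 0.05, and only 1 of 10 was over 2-fold different. This was UST, which sulfates uronic acid in these chains, and it was lower (2581 against 6461, log2 ratio -1.32). The shares of all measured genes were 1.69% higher and 2.10% lower in J3T-2A over J3T-2. They were 4.26% and 3.80% in J3T-1shA over J3T-1. DSE, which converts chondroitin to dermatan, had signals of 892.8 to 1344. CHSY3, a chondroitin synthase, read 339.3 in J3T-1 and 385.9 in J3T-1shA, but 47.8 in J3T-2 and 111.5 in J3T-2A, below the limit.

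Among 8 genes of keratan chain synthesis, 7 were on the array and 4 reached the limit. CHST2, a sulfotransferase acting on N-acetylglucosamine, had a signal of 529.7 on the J3T-1 array and 29.9 to 78.7 on the others, and B3GNT2, B4GALT1 and B4GALT4 were within 2-fold between all arrays. Of the tyrosine sulfotransferases, TPST2 had 926.1 on the J3T-1shA array and 229.9 to 249.9 on the other 3, 3.99-fold above J3T-1, and TPST1 stayed within 2-fold. TPST2 was thus highest on the array where FMOD and OMD, whose proteins carry sulfated tyrosines, were also highest. However, TPST2 was not higher in J3T-2A than in J3T-2 (log2 ratio -0.12). Of the same class, PRELP was also highest on J3T-1shA by its brightest probe set, whereas LUM was highest on J3T-2A by both probe sets.

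Of 12 collagen chains that the family binds or is found with, 10 were on the array and 6 reached the limit. COL1A1 had signals of 2014 on the J3T-1 array, 3799 on J3T-2, 11899 on J3T-2A and 16842 on J3T-1shA. Its 2 modified lines were above its 2 unmodified ones, as for OGN and OMD. COL5A1, a chain that starts fibrils, had 2450, 3952, 6623 and 8772 on the same arrays. COL5A2 and COL1A2 were also highest on J3T-1shA, whereas COL14A1 was lowest there (818.5) and COL6A1 was over the limit on J3T-1 alone (750.3). The median over the list was 0.74 in J3T-2A over J3T-2, with 2 of 5 measured genes over 2-fold higher, and 0.69 in J3T-1shA over J3T-1, with 2 of 6 higher and 1 lower. Over all genes the medians were 0.00 and -0.03, with 1.69% higher in the first comparison and, in the second, 4.26% higher and 3.80% lower.

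Of 9 genes that process procollagen or proteoglycans, 8 were on the array and 4 reached the limit on all arrays. BMP1, the protease that cleaves the propeptide of biglycan, had signals of 514.9 to 700.1 and stayed within 2-fold. PCOLCE, an enhancer of that protease, was lowest on the J3T-1shA array, at 4094 against 8703 to 10846. LOX, which cross-links collagen, had 937.1 on the J3T-2 array and 2086 to 3337 on the other 3. The medians were 0.31 in J3T-2A over J3T-2 and 0.38 in J3T-1shA over J3T-1, against 0.00 and -0.03 over all genes.

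Of 19 ligands and receptors that decorin or biglycan can bind, 11 reached the limit. MET, a receptor tyrosine kinase bound by decorin, had 671.3 on the J3T-2 array, 760.1 on J3T-1, 1411 on J3T-2A and 2421 on J3T-1shA, so that both modified lines were above both unmodified ones. CCN2, which decorin also binds, was over 2-fold higher in each modified line than in its unmodified one, with log2 ratios of 2.09 and 1.19, but was higher on J3T-1 (4024) than on J3T-2A (1808). TGFB2 and TGFB3 were highest on J3T-1shA, whereas TGFB1 was highest on J3T-2A (680.5). TGFBR2 was lowest on J3T-1shA (2623 against 3794 to 5657). EGFR, TLR2 and TLR4 were not among the genes that reached the limit. The list had medians of 0.27 in J3T-2A over J3T-2 and 0.31 in J3T-1shA over J3T-1.

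The labelled cell type was checked by markers. SOX2 (936.8 to 1663), VIM and CD44 were over the limit on all 4 arrays, NES reached it on J3T-1shA alone (345.9), and GFAP (8.2 to 21.6) and S100B (12.7 to 33.6) were under it on all. Family members are also abundant in fibroblasts, and 5 of 9 fibroblast markers reached the limit. Their summed signal was 24817 on the J3T-1 array and 28852 on J3T-2 against 43906 on J3T-2A and 48891 on J3T-1shA, and so moved with OGN and OMD, mainly through COL1A1 and COL1A2. Other fibroblast markers did not: THY1 was highest on J3T-2A and J3T-2, PDGFRA was highest on J3T-2 (352.7), and FAP reached the limit on J3T-1 alone. TCF21 (1.4 to 8.0), PDGFRB, PDPN and COL3A1 were under the limit on all arrays. Of 6 mural cell markers only ACTA2 reached the limit, with 13625 on J3T-1shA, 562.2 on J3T-1, 24.9 on J3T-2 and 98.7 on J3T-2A, and the list summed to 268 to 856 on the other arrays against 13987 on J3T-1shA. None of the osteoblast markers on the array reached it (sums of 233 to 252), and of endothelial and macrophage markers only PECAM1 on J3T-2 and C1QA on all arrays did. The part of such cells or of a fibroblast-like state in the values of OGN, OMD and FMOD was not tested, and more cells with a transcript cannot be told apart from more transcript per cell.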

How the data were processed

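Total RNA of 4 canine GBM lines was hybridized to 1 GeneChip Canine Genome 2.0 array per line. The authors obtained probe set intensities from MAS 5.0, run on each array alone with its defaults, and scaled the arrays globally. The deposited table holds linear intensities without detection calls. Its trimmed means, with 2% left out at either end, were about 5 times the stated target of 100. No genome build is given in the sources used here.

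Probe sets were named from the platform annotation: 29254 had 1 symbol, 439 several and 13231 none listed. The Entrez identifiers of 6 of the 7 members were found in the RefSeq gene table, and that table holds OMD under another identifier. Log2 ratios were taken between arrays without pseudocount or further normalization. The limit of 250, the members and the gene lists were chosen with earlier results of these data known. Alternatives were a limit of 500, no limit, a pseudocount of 80, signals under 160 set to 160, quantile normalization, median centring and the median of a gene's probe sets. All members and the 5 genes nearest to each were named, and list genes over 2-fold in any pair could be named. List genes within 2-fold or under the limit, and the marker genes were named outside this rule, after their values were seen. Counting was tested on simulated data made from bright genes alone, so the limit of 250 and the counting of dim signals were not tested. Python 3.11.15, numpy 2.4.6, pandas 2.3.3 and matplotlib 3.10.9 were used.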

Additional observations from a re-analysis of the deposited data

Results flagged for a closer look

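OGN, OMD and FMOD ran in opposite directions when each line labelled ANXA2-high was set over the ANXA2-low line of the same origin. The log2 ratios in J3T-2A over J3T-2 and in J3T-1 over J3T-1shA were 3.26 and -3.21 for OGN, 2.87 and -2.64 for OMD, and 1.69 and -2.64 for FMOD. With 1 array per line the difference between the 2 origins was not tested.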

How the results depend on the processing

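No paired analysis was possible because each line has 1 array and the labels give no replicate numbers. Over 7 alternatives, 230 of 249 log2 ratios of members moved by less than the SD between probe sets of a gene or not at all. The other 19 moved by more, and none with a ratio over 2-fold changed sign. A limit of 500 and no limit change only which genes are measured, so the 27 and 37 ratios counted there could not move. The median of a gene's probe sets could not move DCN, OMD or OGN, which have 1 probe set each. The number of members over 2-fold different (3 in J3T-2A over J3T-2, 2 in J3T-1 over J3T-2 and 3 in J3T-1 over J3T-2A) was 0, 1 and 1 with a limit of 500. In J3T-1 over J3T-2 it was 4 with no limit on signal, 1 with a pseudocount of 80 and 1 with signals under 160 set to 160. In J3T-1 over J3T-2A it was 1 with the pseudocount, 2 with signals under 160 set to 160, 4 with quantile normalization (LUM at -1.01) and 4 with the median of a gene's probe sets (FMOD at -1.11). The difference of OGN and OMD from DCN, LUM, FMOD and BGN was 1.66 in J3T-2A over J3T-2, -1.36 in J3T-1 over J3T-1shA and 2.65 in J3T-1shA over J3T-2 with the pseudocount. With signals under 160 set to 160 it was 0.90 in J3T-2A over J3T-2 and 2.04 in J3T-1shA over J3T-2. With FMOD left out, an alternative chosen after seeing the data, it was 3.37, -2.33 and 5.07 in these 3 pairs and 1.70 in J3T-1shA over J3T-2A. Quantile normalization and median centring moved no member's ratio by more than the SD between probe sets. OGN and OMD could not be compared in J3T-1 over J3T-2, nor with a limit of 500 in the 2 pairs of J3T-2A with J3T-2 and J3T-1.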
